A study of Rattus norvegicus with 4 samples.

Results

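The genes described here are cytochrome P450 fatty acid hydroxylases of the Cyp4a and Cyp4f subfamilies. Every spot whose annotated symbol was Cyp4a1, Cyp4a2, Cyp4a3, Cyp4f1 or Cyp4f4 was taken, including clones listed under several or repeated symbols. These are 5 genes of the 3179 symbols listed on the array. They were represented by 4 clones on 10 of 7688 spots, and all 10 spots carried a measured ratio on all 4 arrays. Cyp4a2 and Cyp4a3 were listed together for 1 clone, so their ratios cannot be told apart. The Cyp4a1 clone was listed with its symbol repeated.

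Cyp4 enzymes sit in the endoplasmic reticulum and place a hydroxyl group on the terminal, or omega, carbon of a fatty acid, with electrons supplied by the P450 reductase Por. Alcohol and aldehyde dehydrogenases turn the product into a dicarboxylic acid, which peroxisomes shorten. The Cyp4a genes are textbook targets of the fatty acid receptor PPARα in rodent liver. The Cyp4f enzymes are best known for hydroxylating eicosanoids such as leukotriene B4, which ends its signal.

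Each array compared 2 RNA samples on spotted cDNA clones. One was total liver RNA of 1 of 4 female Fischer rats dosed with ciprofibrate, a fibrate drug that activates PPARα, at a daily 50 mg/kg over 60 days. The other was a single pool of total RNA from the livers of 5 control rats, whose own handling is not described in the labels. The labels do not number the treated rats. Each array was treated as a separate rat, with replicate numbers as names only, and p-values would reflect only technical spread if a rat was used on more than 1 array. In bulk liver, fewer cells of a type and less RNA per cell cannot be told apart.

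Values are log2 ratios with the median of each array at 0. The labels name the treated liver first and the control liver second and give no dyes, so the direction is not settled by them. From that channel order, a positive ratio likely means more RNA in the treated liver. Of 11 measured genes of a panel that peroxisome proliferators are known to raise, Cyp4a genes left out, 6 had a positive and 5 a negative mean. Of these 11, 3 were called positive and 1 negative, beside 13.6% and 15.0% of all clones. That panel therefore adds little to the reading, and the signs below are those of the deposited values. If the ratio ran the other way, every sign would turn.

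Over all 4704 clones with a value on every array, 638 were called positive (13.6%) and 706 negative (15.0%) at a limma adjusted p under 0.05. Calls went with place on the slide, in a layout of 8 blocks in 2 columns that was inferred from the values. In the left column 25.5% of clones were called positive and 8.13% negative, against 1.39% and 22.1% in the right one. After a smooth positional surface had been removed from every array, 134 (2.85%) and 531 (11.3%) were called. The ratio of each Cyp4a and Cyp4f clone is therefore given with the surface kept and with it subtracted. Replicate 2 stood apart: it correlated at 0.462 to 0.529 with the other arrays over all spots, which correlated at 0.669 to 0.759 among themselves. The table holds ratios and no levels, so the labelled tissue could not be checked against liver markers by level. All 12 clones of 11 hepatocyte markers had negative means, between -0.70 and -0.13, and 3 were called negative. With the surface subtracted, F2 and Tf kept their calls and Fgb did not. The 2 Alb clones and Serpina1 were lowest on replicate 2, between -1.60 and -1.53, and positive on replicate 1, where the other marker clones were negative. The part of these markers in the results below was not tested.

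The regions before the annotated starts of Cyp4a2 and Cyp4a3 show how alike this pair is, and that of Cyp4f1 is shown beside them as a gene of the other subfamily. The promoter table used here held 3 of the 5 genes, from RefSeq on GRCr8. Each line gives 250 bases before the start, 5′ to 3′ on the gene's own strand, with the motif AGGTCA in capitals (searched on both strands, also as TGACCT). This 6-base motif is the core that PPARα and its partner RXR bind as a pair spaced by 1 base. The regions are chr5:134170909-134171158 (minus strand) for Cyp4a2, chr5:134352237-134352486 (minus strand) for Cyp4a3 and chr7:12672554-12672803 (minus strand) for Cyp4f1.
Cyp4a2: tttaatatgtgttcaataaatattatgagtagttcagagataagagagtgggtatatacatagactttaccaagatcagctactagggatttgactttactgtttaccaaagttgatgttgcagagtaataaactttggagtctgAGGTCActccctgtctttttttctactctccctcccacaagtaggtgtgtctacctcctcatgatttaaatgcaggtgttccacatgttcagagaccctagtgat
Cyp4a3: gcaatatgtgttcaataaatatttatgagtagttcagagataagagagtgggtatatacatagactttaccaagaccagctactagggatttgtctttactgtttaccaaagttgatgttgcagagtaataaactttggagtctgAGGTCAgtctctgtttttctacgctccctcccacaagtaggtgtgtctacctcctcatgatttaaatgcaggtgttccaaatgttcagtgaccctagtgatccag
Cyp4f1: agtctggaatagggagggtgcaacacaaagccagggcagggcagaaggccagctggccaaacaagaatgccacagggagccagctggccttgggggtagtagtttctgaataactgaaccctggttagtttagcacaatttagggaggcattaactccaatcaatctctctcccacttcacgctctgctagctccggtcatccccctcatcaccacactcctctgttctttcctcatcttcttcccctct
The regions were aligned with gaps allowed and overhanging ends not penalised, and only paired bases were counted. The Cyp4a2 and Cyp4a3 regions were identical at 236 of 245 paired bases (96.3%). Cyp4a2 and Cyp4f1 were identical at 130 of 231 (56.3%). How alike unrelated regions come out under this alignment was not tested. The Cyp4a2 and Cyp4a3 regions each held 1 AGGTCA, beginning 105 bases before the start, and the Cyp4f1 region held none. Among all 33469 promoter windows of this length 14.1% held the motif. The paired form AGGTCANAGGTCA, present in 0.0508% of windows, was in none of the 3. These are matches of letters and say nothing of binding.

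The clone of Cyp4a2 and Cyp4a3 had the highest ratio of the 4. Both genes encode omega-hydroxylases of medium- and long-chain fatty acids, arachidonic acid among them. Its log2 ratios were 1.24, 0.45, 0.90 and 0.98 on replicates 1 to 4, which are linear ratios of 2.36, 1.36, 1.86 and 1.97. All were positive, with replicate 1 highest and replicate 2 lowest. The mean was 0.89 ± 0.33 (SD, n = 4; 95% interval 0.57 to 1.21), a 1.85-fold ratio with an interval of 1.49 to 2.31 (limma adjusted p = 0.00669). This mean ranked 15 of 4704 clones from the top and 3 of the 2746 with a listed gene. Array by array it ranked 16, 25 and 15 on replicates 1, 3 and 4, but 653 on replicate 2.

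The 2 spots of this clone, both in block 1 of the left column, differed little next to their ratio. The first read 1.35, 0.46, 1.03 and 1.07 and the second 1.14, 0.43, 0.77 and 0.89 on replicates 1 to 4. The first was the higher on every array, by 0.17 on average. Such side-by-side duplicates differed by a median of 0.05 over 1174 pairs on the array, and 87.1% of them differed by less than this pair. The surface at these spots was raised on replicates 3 and 4, where it stood between 0.47 and 0.54, and stood between 0.25 and 0.31 on replicate 1 and 0.03 and 0.09 on replicate 2. With it subtracted the clone was at 0.95, 0.39, 0.31 and 0.41 on replicates 1 to 4. The ratio stayed positive on all 4 arrays and within the call, at 0.51 (limma adjusted p = 0.0425), with replicate 1 well above the rest. With replicate 2 also left out the call ended at 0.55 (adjusted p = 0.0666), while with the surface kept it held without any 1 array, between 0.77 and 1.04.

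Cyp4a1, the peroxisome proliferator-inducible lauric acid hydroxylase and the neighbour of Cyp4a3 on its chromosome, had a smaller ratio. The 4 spots averaged 0.51, 0.19, 0.33 and 0.23 on replicates 1 to 4, all positive and with replicate 1 highest. The mean was 0.31 ± 0.14 (SD, n = 4; 95% interval 0.08 to 0.55), a 1.24-fold ratio that lay just outside the threshold (limma adjusted p = 0.0520). It ranked 733 of 4704 clones from the top.

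This average joined spots that did not read alike. A pair in block 4 read 0.22, -0.11, 0.25 and 0.20 on replicates 1 to 4, with a mean of 0.14 ± 0.17. A pair in block 8 read 0.79, 0.49, 0.42 and 0.25, with a mean of 0.49 ± 0.23. The block 8 pair was the higher on every array, by 0.58, 0.61, 0.17 and 0.06, so the pairs nearly met on replicate 4. Within each pair the spots differed by 0.03 and 0.06 on average, close to the median for such duplicates. Spots were also tested as rows of their own, with arrays centred on the median over spots, which made these means slightly lower. Both spots of block 8 were called positive (0.50 and 0.44, limma adjusted p = 0.0300 and 0.0236). Neither of block 4 was (0.10 and 0.13, limma adjusted p = 0.523 and 0.349). The gap of 0.35 between blocks was set beside those of other clones with the surface kept. Of 28 listed clones printed in 2 blocks, 13 had a larger gap, the median gap was 0.35 and the largest 1.61. On the array, 20 tested clones were printed in both columns, unlike Cyp4a1, and their gaps include the offset between columns. Whether the Cyp4a1 gap is ordinary within 1 column was not tested.

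Both Cyp4a1 blocks lay in the right column, where few clones were called positive. The surface there was low, at -0.03 on average in block 4 and -0.10 in block 8, so subtracting it did not bring the pairs together: they stood at 0.17 and 0.58. The clone was then at 0.55, 0.21, 0.35 and 0.24 on replicates 1 to 4, again positive on each. At a mean of 0.34 it was a positive call (limma adjusted p = 0.0475). It was also called without replicate 2 (0.35, adjusted p = 0.0287) and with block medians subtracted (0.47, adjusted p = 0.0201).

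**Figure D1:**
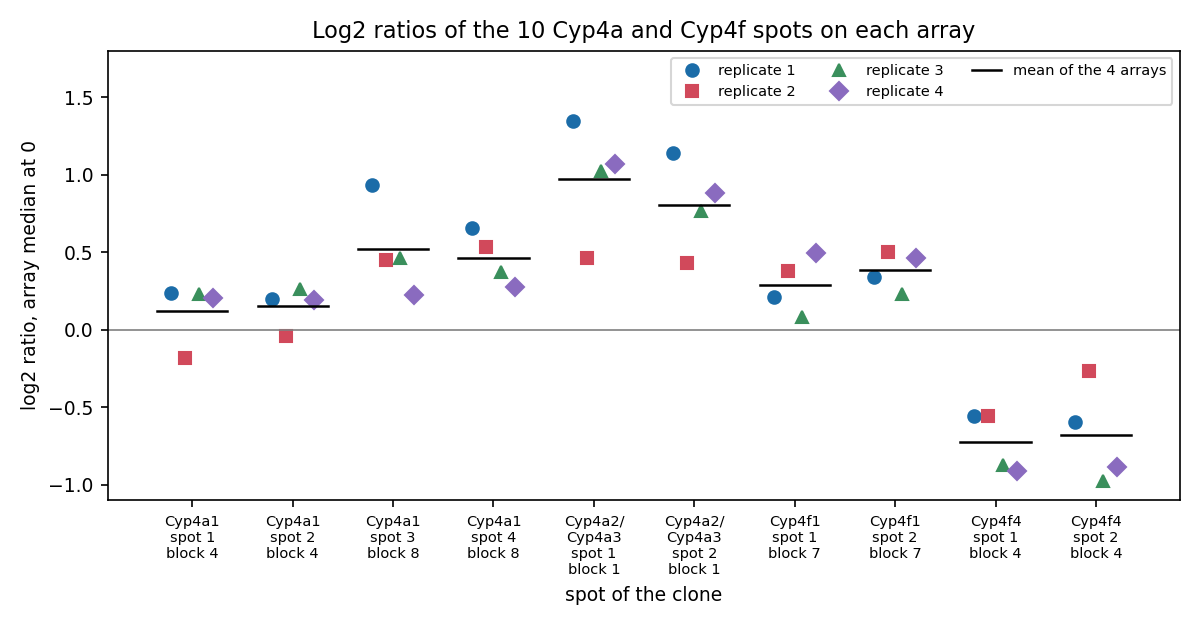
Log2 ratio (vertical axis, array median at 0) of each of the 10 spots on each of the 4 arrays, with the spots along the horizontal axis; symbols are arrays and the bar is their mean. Cyp4a2/Cyp4a3 spots are highest (means 0.97 and 0.81), the Cyp4a1 spots fall into a lower pair in block 4 and a higher one in block 8, and all Cyp4f4 values lie below 0.

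Cyp4f1, a liver enzyme of leukotriene and arachidonic acid hydroxylation, had a ratio close to that of Cyp4a1. Its clone read 0.27, 0.44, 0.16 and 0.48 on replicates 1 to 4, all positive, with replicates 2 and 4 the higher ones. The mean was 0.34 ± 0.15 (SD, n = 4; 95% interval 0.10 to 0.57), a 1.26-fold ratio called positive (limma adjusted p = 0.0434) at rank 651 of 4704. Its spots, in block 7 of the left column, averaged 0.29 and 0.38. The surface at them averaged 0.21 and 0.19, and on replicate 4 it was 0.39 and 0.43 against spot values of 0.50 and 0.46. With the surface subtracted the clone was at 0.05, 0.39, -0.02 and -0.02, so that only replicate 2 stayed clear of 0. The mean was then 0.10 and not called (limma adjusted p = 0.443), and 0.0019 with replicate 2 also left out (adjusted p = 0.969). With the surface kept, the call also ended when replicate 1, 3 or 4 was left out, at 0.36, 0.40 and 0.29 (limma adjusted p = 0.0998, 0.106 and 0.170).

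Cyp4f4, a member of the same subfamily in the same chromosomal cluster, had a negative ratio. Its clone read -0.58, -0.41, -0.92 and -0.90 on replicates 1 to 4, all negative, with replicates 3 and 4 lowest. These are linear ratios of 0.671, 0.752, 0.527 and 0.536. The mean was -0.70 ± 0.25 (SD, n = 4; 95% interval -0.98 to -0.42), a 1.63-fold difference in the negative direction (limma adjusted p = 0.00878). It ranked 273 of 4704 from the bottom, and on replicate 2 alone 1289.

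The 2 Cyp4f4 spots, in block 4 of the right column, averaged -0.72 and -0.68 and were both called negative as rows of their own (limma adjusted p = 0.00618 and 0.0126). Replicate 2 set them apart most, by 0.29, while on replicates 3 and 1 they differed by 0.10 and 0.04 and on replicate 4 by 0.02. The surface averaged -0.11 and -0.08 at its spots. Less the surface it was at -0.58, -0.35, -0.84 and -0.81, with a mean of -0.64 (adjusted p = 0.0156). The call held without any 1 array, between -0.80 and -0.63, and with both the surface and replicate 2 removed (-0.74, adjusted p = 0.0255). Cyp4f4 and the lower Cyp4a1 pair were printed in the same block and differed in sign on replicates 1, 3 and 4.

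**Figure D2:**
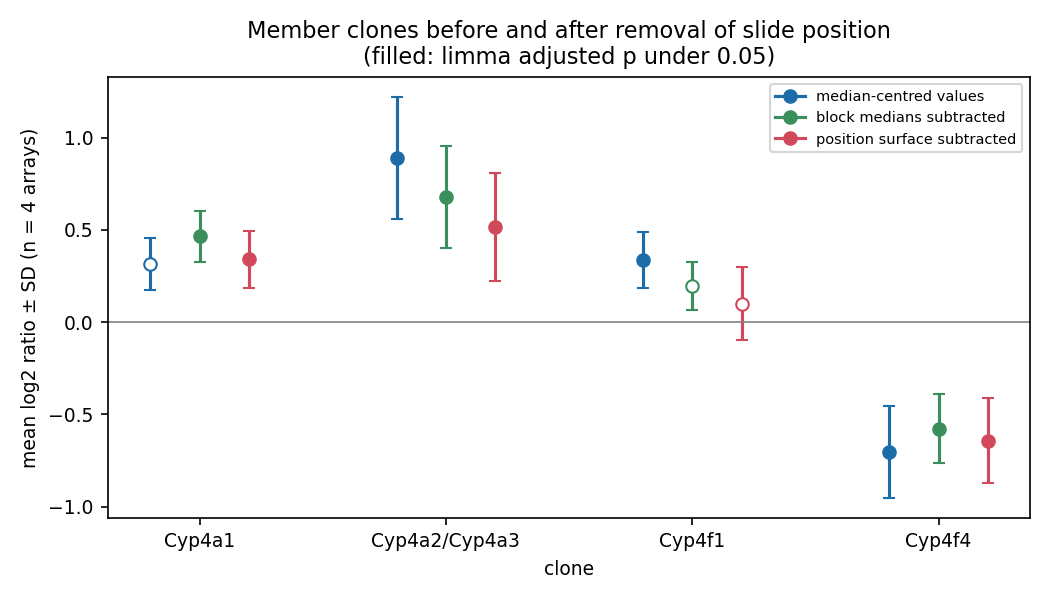
Mean log2 ratio with SD over the 4 arrays (vertical axis) of the 4 clones (horizontal axis), with values centred on the array median, with block medians subtracted, and with the position surface subtracted; filled points have a limma adjusted p under 0.05. Cyp4a2/Cyp4a3 goes from 0.89 to 0.51 and Cyp4f1 from 0.34 to 0.10 with the surface subtracted, while Cyp4f4 goes from -0.70 to -0.64 and Cyp4a1 from 0.31 to 0.34.

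Of the 4 clones, 2 were thus called positive and 1 negative, beside 13.6% and 15.0% of all clones. Their median ratio was 0.33 against -0.01 over all clones. With the surface subtracted the positive calls were Cyp4a2/Cyp4a3 and Cyp4a1 and the negative one Cyp4f4, beside 2.85% and 11.3%. A ratio of one sign on all 4 arrays was itself common: 27.2% of all clones were positive and 25.6% negative on every array.

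Because both clones of a pair were read on the same slide, their difference was taken within each array. All 6 pairs were compared by an exact two-sided sign-flip test over 4 arrays, in which 2 of 16 sign patterns, or p = 0.13, is the smallest share possible. Cyp4f1 exceeded Cyp4f4 by 0.85, 0.85, 1.08 and 1.38 on replicates 1 to 4, a mean of 1.04 ± 0.25, and by 0.74 ± 0.08 with the surface subtracted. Cyp4a2/Cyp4a3 exceeded Cyp4f4 by 1.82, 0.86, 1.82 and 1.88, a mean of 1.59 ± 0.49 and the widest gap of the 6 (1.16 ± 0.32 with the surface subtracted). Cyp4a1 exceeded Cyp4f4 by 1.02 ± 0.29, also on every array, and by 0.98 ± 0.29 without the surface. These 3 gaps were several times their SD and each had the smallest possible exact p (0.13, 0.150 adjusted over the 6 pairs), so none could pass a threshold of 0.05.

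The Cyp4a clones differed less from each other and from Cyp4f1. Cyp4a2/Cyp4a3 exceeded Cyp4a1 by 0.74, 0.26, 0.57 and 0.75 on replicates 1 to 4, a mean of 0.58 ± 0.23 (exact p = 0.13, adjusted 0.150). With the surface subtracted the gap was 0.17 ± 0.18, no larger than its SD. Cyp4a2/Cyp4a3 exceeded Cyp4f1 by 0.97, 0.01, 0.74 and 0.50, a mean of 0.55 ± 0.41 (exact p = 0.13, adjusted 0.150), with almost no gap on replicate 2, and by 0.41 ± 0.37 with the surface subtracted. Cyp4f1 and Cyp4a1 did not differ beyond their spread, at 0.02 ± 0.26 (exact p = 0.750, adjusted 0.750), with each the higher on 2 arrays. In order, Cyp4a2/Cyp4a3 came first, then Cyp4f1 and Cyp4a1 together, then Cyp4f4. With the surface subtracted Cyp4a1 stood above Cyp4f1, by 0.24 ± 0.30.

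**Figure D3:**
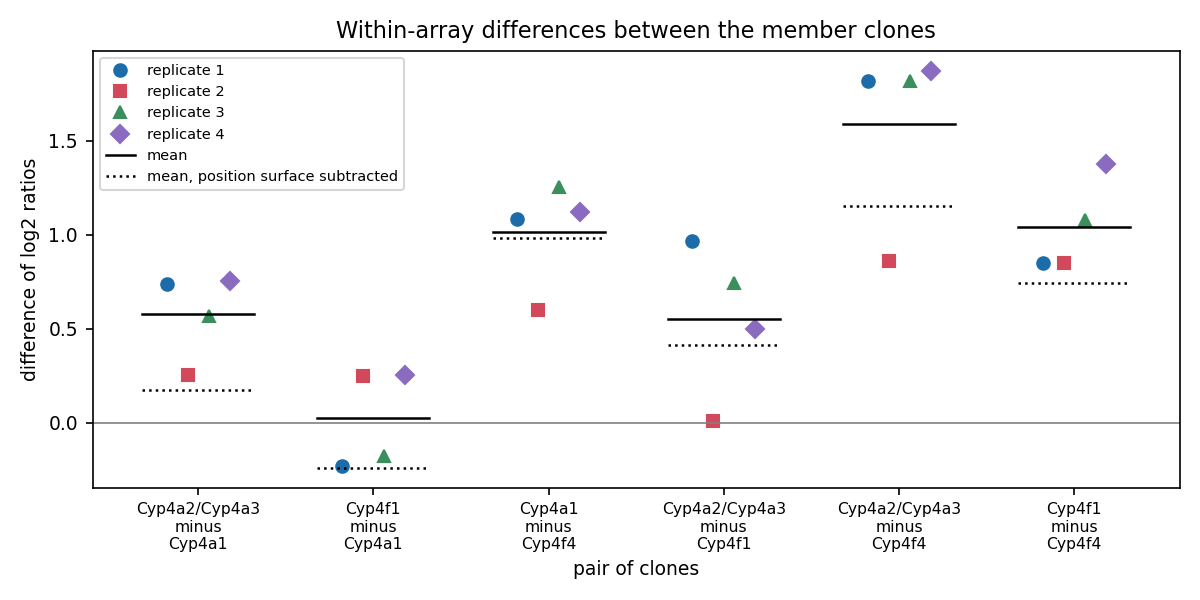
Difference of log2 ratios within each array (vertical axis) for the 6 pairs of clones (horizontal axis); symbols are arrays, the solid bar is their mean and the dotted bar the mean with the position surface subtracted. All 3 pairs with Cyp4f4 lie above 0 on every array, while Cyp4f1 minus Cyp4a1 straddles 0.

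By distance over the 4 log2 ratios, each clone was compared with the 2707 tested clones of 1 symbol, and the 3 nearest were taken. Nearest to Cyp4a2/Cyp4a3 were Hspe1, a mitochondrial chaperonin (distance 0.52), Crmp1, a neuronal phosphoprotein (0.58), and the fatty acid oxidation enzyme gene Ech1 (0.63). Each of these 3 distances exceeds every distance given below for the other clones. Nearest to Cyp4a1 were Gabarapl1, an autophagy protein (0.11), Acadm, the medium-chain acyl-CoA dehydrogenase (0.19), and the ribosomal protein gene Rpl39 (0.20). Nearest to Cyp4f1 were Tlr3, a receptor for double-stranded RNA (0.04), Git1 (0.07) and Bnip3, a mitochondrial protein of the hypoxic response (0.08). All 3 of these were printed in block 7, as Cyp4f1 was. Nearest to Cyp4f4 were Timp3, a metalloproteinase inhibitor (0.09), the actin-binding protein gene Coro1a (0.25) and Flnc, a filamin (0.29), at means of -0.69, -0.73 and -0.82. Coro1a and Flnc were printed in the right column, as Cyp4f4 was, and Timp3 in both. Hspe1 and Ech1 shared the left column with Cyp4a2/Cyp4a3, and Crmp1 did not. Acadm shared the right column with Cyp4a1, and Gabarapl1 and Rpl39 did not. Ech1 went from 0.67 to 0.31 with the surface subtracted (limma adjusted p = 0.0488).

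No other tested gene of the omega oxidation list was called with all 4 arrays and the surface kept. Of a list of 25 genes, 9 were tested and 0 were called by limma in either direction, beside 28.6% of all clones. At an unadjusted p under 0.05 there were 2, a looser cutoff that at least those 28.6% of all clones passed. The exact share at that cutoff was not counted. The median of the 9 was 0.06 beside -0.01 over all clones. All 9 are given here. Cyp4b1, next to Cyp4a1 on the chromosome, was at 0.03 ± 0.15 (SD, n = 4; -0.04, 0.12, 0.20 and -0.13 on replicates 1 to 4). Cyp4f17, of the Cyp4f cluster, was at 0.06 ± 0.21 (0.23, -0.23, 0.02 and 0.21). Neither family member kept one sign over the arrays, and both means turned with the surface subtracted, to -0.05 for each. Por was at 0.25 ± 0.19, and cytochrome b5, Cyb5a, which also passes electrons to P450 enzymes, at 0.11 ± 0.26. Its reductase Cyb5r3 was at -0.26 ± 0.19. Of the aldehyde dehydrogenases, Aldh3a2, which oxidises long-chain fatty aldehydes, was at 0.08 ± 0.21, the retinal dehydrogenase Aldh1a1 at 0.35 ± 0.38 and the mitochondrial Aldh2 at -0.11 ± 0.08. Cyp2e1, an ethanol-inducible P450, was at -0.13 ± 0.06. Without replicate 2, Aldh1a1 (0.54) and Por (0.33) were called positive and Cyb5r3 (-0.35) negative (limma adjusted p = 0.0103, 0.0329 and 0.0209). In that setting 18.5% of all clones were called positive and 19.0% negative. Subtracting the surface left Aldh1a1 at 0.01, Aldh2 at -0.01, Cyp2e1 at -0.06 and Cyb5r3 at -0.17, and turned Por to -0.14, Cyb5a to -0.23 and Aldh3a2 to -0.21, none of them called.

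Of 15 genes for the further fate of dicarboxylic acids in peroxisomes, 7 were tested. Of these, 2 were called positive and 1 negative, beside 13.6% and 15.0% of all clones, and 4 were not called. The median of the 7 was -0.29. Crot, which makes carnitine esters for export from the peroxisome, was at 0.67 ± 0.12 (0.49, 0.74, 0.71 and 0.72 on replicates 1 to 4; limma adjusted p = 0.00593). Acsl1, which joins long-chain fatty acids to coenzyme A, was at 0.41 ± 0.22 (0.48, 0.08, 0.55 and 0.54; adjusted p = 0.0329), with replicate 2 apart. Abcd3, a transporter that takes acyl-CoAs into the peroxisome, was at -0.53 ± 0.20 (-0.33, -0.80, -0.45 and -0.55; adjusted p = 0.0142). With the surface subtracted only Abcd3 was still called (-0.43, adjusted p = 0.0355), and Crot was at 0.28 and Acsl1 at 0.08. The call of Acsl1 ended without replicate 1, 3 or 4 (0.39, 0.37 and 0.37, limma adjusted p = 0.108, 0.147 and 0.123). That of Abcd3 ended without replicate 3 or 4 (-0.56 and -0.52, adjusted p = 0.0565 and 0.0547). Of the uncalled genes, Scp2, Hsd17b4 and Amacr had means of -0.41, -0.36 and -0.29 and were lowest on replicate 2. Without replicate 2 their means were -0.17, -0.10 and -0.09. Slc27a2 was at -0.27, and at -0.29 without replicate 2.

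Of 24 genes of eicosanoid metabolism, the pathway in which Cyp4f enzymes act on leukotrienes, 11 were tested. Beside 28.6% of all clones called in either direction, 1 of the 11 was called. It was Dpep1, the dipeptidase that converts leukotriene D4, at -0.61 ± 0.39 (-0.70, -0.16, -0.49 and -1.09 on replicates 1 to 4; limma adjusted p = 0.0244). The call ended with the surface subtracted (-0.55, adjusted p = 0.0556) and without replicate 1, 3 or 4 (-0.58, -0.65 and -0.45; adjusted p = 0.0899, 0.0645 and 0.0868). The other 10 lay between -0.36 for Cyp2c23, the arachidonic acid epoxygenase, and 0.28 for Alox5ap, the activator of leukotriene synthesis. The median of the list was 0.07. The phospholipase Pla2g2a, at -0.12, was called at -0.43 once the surface was subtracted (limma adjusted p = 0.0263).

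Of 17 PPAR receptors and partner proteins, 4 genes were tested on 5 clones. Of these clones, 1 was called positive and 2 negative, beside 13.6% and 15.0% of all clones. Nr1h2, the oxysterol receptor LXRβ and like the PPARs a partner of RXR, was at -1.19 ± 0.39 (-0.80, -1.73, -1.09 and -1.15 on replicates 1 to 4; limma adjusted p = 0.00419) and held with the surface subtracted (-1.40). Ncoa3, a coactivator of nuclear receptors, had 2 clones called in opposite directions, at -0.42 ± 0.12 and 0.33 ± 0.06 (limma adjusted p = 0.0211 and 0.0363), so the gene has no single direction here. Each of these clones rests on 1 spot, without a duplicate. Neither Ncoa3 call held with the surface subtracted (-0.14 and 0.20) or without replicate 1 (-0.40 and 0.35), 3 (-0.41 and 0.30) or 4 (-0.38 and 0.34). Rxra, the partner of PPARα on DNA, was at 0.17 ± 0.10 and Pparg at 0.24 ± 0.08, neither called (0.27 and 0.23 with the surface subtracted, again not called). Of the 8 other P450 genes tested, 0 were called by limma, beside 28.6% of all clones. At an unadjusted p under 0.05 there were 3, where the share of all clones is at least 28.6% and was not counted. The median of the 8 was 0.16. They ranged from -0.28 for the female-specific steroid hydroxylase Cyp2c12 to 0.33 for Cyp11a1, the cholesterol side-chain cleavage enzyme. Cyp2c12 became a negative call once the surface was subtracted, at -0.56 (limma adjusted p = 0.0206).

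**Figure D4:**
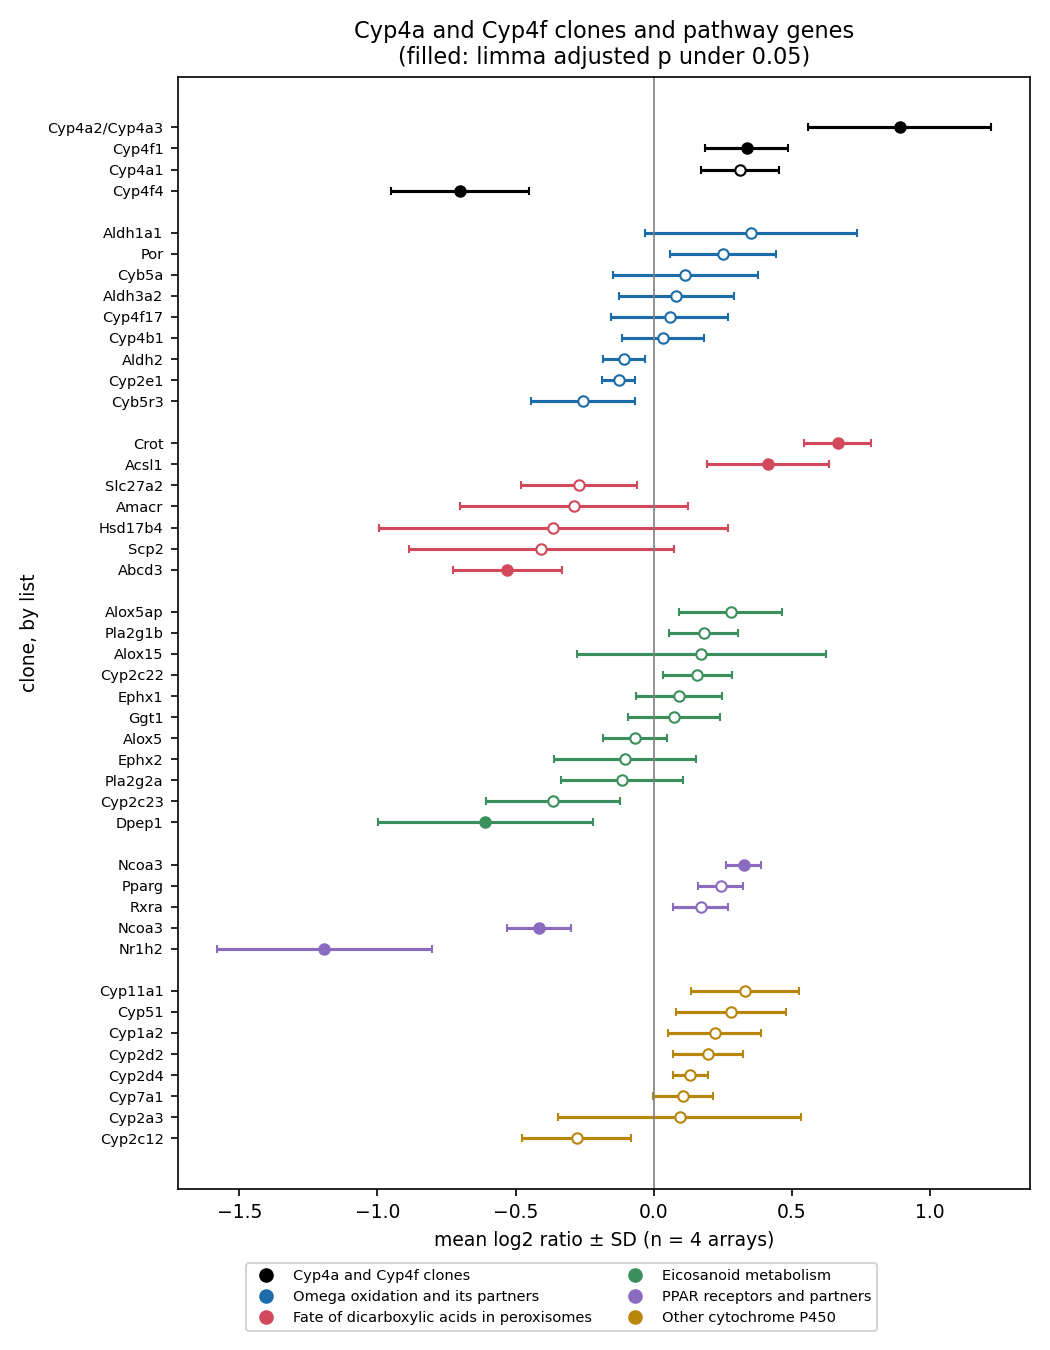
Mean log2 ratio with SD over the 4 arrays (horizontal axis) for the Cyp4a and Cyp4f clones and the tested clones of the 5 pathway lists (vertical axis); filled points have a limma adjusted p under 0.05. Cyp4a2/Cyp4a3 at 0.89 lies above every pathway clone plotted, and Cyp4f4 at -0.70 below all but Nr1h2 at -1.19.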

How the data were processed

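The values that the authors deposited are log10 ratios, read from the numbers themselves: undone to base 10 and multiplied by 1000, 100.0% of them fell within 0.02 of a whole number. How they were scanned, background-corrected and normalized is not given in the sources used here. The most repeated value on each array (1171 to 1189 spots) was read as a missing ratio; 6499 to 6517 spots remained per array. Values were converted to log2, spots of one listed clone averaged (5674 rows) and arrays centred on the median. Each clone's mean was tested against 0 with limma 3.58.1 in R 4.3.3, two-sided, with Benjamini-Hochberg adjustment over 4704 clones. The pool is 1 control sample, so the spread between control rats is left out, and 4 arrays limit the precision. Symbols come from an older platform annotation, updated through GRCr8 for 5140 of 5252 listed probes; clone sequences were not checked. The layout (8 blocks of 31 by 31 spots) is inferred; the surface is a robust loess (span 0.05). The test was tried on simulated data. Genes named were every spot of the 5 genes, the called genes of the omega oxidation list, the 2 smallest p of each sign among called genes of each other list, and the 3 nearest clones by distance. Others were named after their values were seen: the uncalled omega oxidation genes, Scp2, Hsd17b4, Amacr, Slc27a2, Cyp2c23, Alox5ap, Pla2g2a, Rxra, Pparg, Cyp2c12, Cyp11a1, the panel genes Me1 and Cpt1a and the hepatocyte markers F2, Tf, Fgb, Alb and Serpina1. The genes, lists and alternatives were chosen with earlier results of these data known. Alternatives covered centring, quantile normalization, spread, row unit, position, missing values, prior, array weights, threshold and each array left out.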

Additional observations from a re-analysis of the deposited data

Results flagged for a closer look

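Among 21 sets of 4 values checked, 3 had a sample far from the others; chance gives about 1 in 20. The first Cyp4a1 spot was at -0.18 on replicate 2 and between 0.20 and 0.24 on the other arrays. The Acsl1 clone was at 0.084 on replicate 2 and between 0.48 and 0.55 on the others. The Crot clone was at 0.49 on replicate 1 and between 0.71 and 0.74 on the others.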

How the results depend on the processing

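Cyp4a2/Cyp4a3 and Cyp4f4 kept their sign under every alternative run. The call of Cyp4a2/Cyp4a3 ended with an unmoderated statistic (0.89, adjusted p = 0.0869) and without both the position surface and replicate 2 (0.55). That of Cyp4f4 ended with the unmoderated statistic and with limma's treat against 1.2-fold (-0.70, adjusted p = 0.0847 and 0.0675). Cyp4a1 became a call with the surface subtracted (0.34), also without replicate 2 (0.38), with block medians subtracted (0.47), the most repeated value kept (0.42), array weights (0.34) and as spots 3 (0.50) and 4 (0.44). All 10 spots of the 4 clones were measured, so keeping the most repeated value moved their ratios only through the centring of the arrays. Cyp4f1 lost its call without centring (0.31), as its first spot (0.27), with the surface (0.10) or block medians (0.20) subtracted, without the surface and replicate 2 (0.0019), and, at 0.34, with the unmoderated statistic and treat. Values given here for single spots are from arrays centred on the median over spots. Leaving out each array gave 0.25 to 0.35 for Cyp4a1, 0.77 to 1.04 for Cyp4a2/Cyp4a3, 0.29 to 0.40 for Cyp4f1 and -0.80 to -0.63 for Cyp4f4. The difference Cyp4f1 minus Cyp4a1 was -0.24 with the surface subtracted and -0.05 to 0.11 with an array left out (-0.051 without replicate 2 and -0.053 without replicate 4). The gap of Cyp4a2/Cyp4a3 over Cyp4a1 was 0.17 and that of Cyp4f1 over Cyp4f4 0.74 with the surface subtracted.

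Over all clones, positive calls numbered 134 with the surface and 380 with block medians subtracted, 993 with the most repeated value kept, 1148 with array weights, 6 with the unmoderated statistic and 25 with treat, and 99 to 872 with an array left out. Negative calls numbered 462, 1211, 4 and 150 under the last 4 settings and 323 to 895 with an array left out. The share of positive calls, 47.5% in the planned setting, was 20.2% with the surface subtracted, 37.8% with block medians and 68.2% with the most repeated value kept, which moved the median clone by 0.10. In the omega oxidation list, positive calls numbered 1 with the most repeated value kept, beside 17.5% of all clones, and 2 with array weights, beside 24.4%. Negative ones numbered 1 with array weights, beside 25.7%, and 1 without the surface and replicate 2, beside 13.1%. With an array left out there were 0 to 2 positive and 0 to 1 negative calls. The highest counts came without replicate 2, where 18.5% of all clones were called positive and 19.0% negative. The causes of these changes were not tested. No pairing of treated with control samples was possible because there is 1 group. The table holds no signal over background, which leaves the strength of each spot unknown.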
